A study of Mus musculus with 16 samples.

Results

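Meg3, Rian, Mirg, Snhg11, Malat1, Neat1 and Miat are long noncoding RNA genes known for high levels in neurons or in the nucleus of most cells. They were taken by gene symbol from the deposited transcript names, and make up 7 of 46403 symbols and 61 of 111706 transcripts. RNA was sequenced from CA1, the hippocampal field that sends most of the output to cortex and subiculum, of Fmr1-KO mice (8 libraries) and of WT mice, labelled C57BL/6 (8 libraries). Fmr1 encodes FMRP, an RNA-binding protein whose loss underlies fragile X syndrome. Every mouse of both genotypes served as a yoked control in a place avoidance task, so no group without that handling was compared. The labels used here give no age, sex or litter, and do not name the knockout allele. Each library is labelled with a number and a letter, whose meaning the labels do not give. The 16 libraries carry 10 numbers, 5 in each genotype, and 6 of the numbers stand on 2 libraries of the same genotype. Libraries were treated as separate samples, so p-values measure the spread between libraries, and would be too small if libraries with the same number share an animal or a cage. The fits were therefore repeated with counts summed by number, 5 Fmr1-KO against 5 WT, an alternative added after the data were seen.

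Levels are given as CPM, estimated counts scaled to a common library size with TMM factors, and a log2 fold change is Fmr1-KO over WT. The targeted gene matched the labels, with 22.2 ± 7.08 CPM in Fmr1-KO libraries against 58.1 ± 19.4 CPM in WT libraries (n = 8 per genotype, SD), and all 8 Fmr1-KO libraries were below every WT library. Total estimated counts ranged over 1480966 to 2979481 in Fmr1-KO libraries and 2126632 to 3275003 in 6 of the WT libraries. WT replicates 3 and 6 held 878484 and 515103, and the loci Gm28707 and Gm29013 together took 5.37% and 17.1% of their counts, against at most 1.74% in the other 14 libraries. Gene fold changes of the members and their ratios were also computed without these 2 libraries. Counts summed by number joined each of these 2 libraries with a deeper WT library, so that alternative also lowered their weight. Of 8 markers of CA1 pyramidal neurons, all 8 were detected, with a median summed level of 8470 CPM in Fmr1-KO against 8273 CPM in WT. The 8 markers of dentate granule cells, of which 3 were high enough to be tested, summed to a median of 166 CPM in Fmr1-KO against 199 CPM in WT. These sums come from different genes, so their sizes do not give the share of either cell type.

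Long noncoding RNAs act as RNA, in the nucleus or as hosts from which small RNAs are cut. Meg3, Rian and Mirg lie in a row in the Dlk1-Dio3 domain, where the maternal chromosome expresses the noncoding RNAs and the paternal one the protein-coding genes Dlk1, Rtl1 and Dio3. Malat1 and Neat1 are neighbours on another chromosome, and mark different nuclear bodies. Malat1 gathers in nuclear speckles, which store splicing factors, and Neat1 is the scaffold of paraspeckles.

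In the GENCODE M21 annotation of GRCm38, Meg3 spans chr12:109541001-109571726, Rian chr12:109603940-109661716 and Mirg chr12:109729764-109749460, all on the plus strand. From the start of Meg3 to the end of Mirg the cluster covers 208460 bases. Rtl1 lies 17466 bases beyond Meg3, on the opposite strand. Snhg11 lies at chr2:158375638-158386145 on the plus strand and Miat at chr5:112213228-112229395 on the minus strand. Malat1, at chr19:5795690-5802672, and Neat1, at chr19:5824708-5845478, are both on the minus strand, 22035 bases apart. The most abundant Malat1 transcript is 1 exon, that of Meg3 has 5, that of Miat 7 and that of Rian 11.

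Promoters of Meg3 and Malat1 are shown because Meg3 and Malat1 were low in the same 6 libraries, as described further on. Any part of the promoters in those levels was not tested. Each sequence runs from 250 bases before to 50 bases after the RefSeq start (GRCm38.p6), 5′ to 3′ on the strand of the gene. Capitals mark the cAMP response element TGACGTCA, its shorter form TGACGT on either strand, and the TATA motif TATAAA on either strand. The Meg3 sequence is chr12:109540746-109541045, and the Malat1 sequence is chr19:5802623-5802922.
Meg3 promoter: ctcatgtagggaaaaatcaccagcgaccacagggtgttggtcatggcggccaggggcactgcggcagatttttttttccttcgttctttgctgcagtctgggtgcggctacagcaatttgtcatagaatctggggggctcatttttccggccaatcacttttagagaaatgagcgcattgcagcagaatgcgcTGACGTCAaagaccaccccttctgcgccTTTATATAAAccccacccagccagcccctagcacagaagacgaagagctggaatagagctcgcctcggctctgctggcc
Malat1 promoter: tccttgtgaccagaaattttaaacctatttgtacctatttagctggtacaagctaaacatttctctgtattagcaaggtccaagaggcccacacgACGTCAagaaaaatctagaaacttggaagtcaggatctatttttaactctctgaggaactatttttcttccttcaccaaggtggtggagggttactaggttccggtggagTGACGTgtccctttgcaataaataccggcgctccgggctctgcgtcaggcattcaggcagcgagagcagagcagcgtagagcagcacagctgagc
The Meg3 promoter holds the full element, which 1.79% of 32851 mouse promoters of the same length hold, and TATA motifs on both strands that overlap. The table has a second promoter of Meg3, with 0 of these motifs. The Malat1 promoter holds the shorter form 2 times, once on each strand, and 7.51% of promoters hold it at least once. TATAAA occurs in 13.6% of promoters. Of the promoters of Rian, Mirg, Snhg11 and Miat, 0 of 4 held any of these letters, and Neat1 has no entry in the table. A match of letters is a description and not a binding site.

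Miat is known for repeats of UACUAAC, the sequence that the splicing factor SF1 binds at intron branch points. Its most abundant transcript, Miat-002 (8758 bases), held TACTAAC 6 times on the sense strand. The stretches with the first and the last of these are printed in DNA letters with the repeats in capitals, at bases 4526 to 4681 and 5174 to 5238 of the transcript.
Miat-002, first repeats: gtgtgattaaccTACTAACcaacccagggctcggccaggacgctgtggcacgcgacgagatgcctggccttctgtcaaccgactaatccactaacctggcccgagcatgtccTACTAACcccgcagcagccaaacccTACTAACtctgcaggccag
Miat-002, last repeats: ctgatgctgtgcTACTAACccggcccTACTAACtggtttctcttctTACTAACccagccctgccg
Among 6672 mouse transcripts of 5000 to 12000 bases, 1000 held the letters at least once. Only 2 held them 6 times or more, and both were Miat transcripts. Neat1-001 held them 1 time, and the most abundant transcripts of Meg3, Rian, Mirg, Snhg11 and Malat1 held them 0 times.

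The imprinted cluster hosts small RNAs. RefSeq places 19 miRNA hairpins in the spans of its 3 genes, 14 of them in Mirg, with 35 mature miRNAs and 34 different seeds. The seed, bases 2 to 8, pairs with target RNAs and is in capitals. The pair that shares a seed is printed with miR-134-5p, a miRNA known from dendrites of hippocampal neurons, to show what Mirg carries.
miR-453: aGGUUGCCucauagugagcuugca
miR-496a-5p: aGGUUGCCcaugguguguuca
miR-134-5p: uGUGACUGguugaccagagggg
These libraries did not measure mature miRNAs. Of the 20 hairpin genes that M21 annotates in the 3 spans, 9 had any estimated count, 100 in all over 16 libraries. Of 13 small nucleolar RNA genes within Rian, 5 had a count, 96 in all. The hairpins of the printed miRNAs had 4 counts for Mir453 and 0 for Mir496a and Mir134.

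None of the 7 genes passed the test between the genotypes. Each was tested within a fit over all genes by edgeR quasi-likelihood with Benjamini-Hochberg adjusted p-values, where 2 of 11515 genes passed an adjusted p of 0.05 (0.0174%). Of the 7, 0 passed, 4 were higher in Fmr1-KO and 3 lower, and their median log2 fold change was 0.05, against −0.01 over all genes tested. Without WT replicates 3 and 6 these medians were −0.02 and −0.0019. With counts summed by number, 0 of the 7 passed by edgeR, and Malat1 alone had an unadjusted p under 0.05. With libraries as samples, 1 of the 7 stood at an unadjusted p under 0.05, again Malat1, against 909 of all genes tested (7.89%). The ranges of the 2 genotypes overlapped for all 7, whereas for 5 genes of all tested they did not (0.0434%). Together the 7 took 1.06 ± 0.105% of the estimated counts of Fmr1-KO libraries and 0.95 ± 0.171% of those of WT libraries (SD over 8 libraries). The WT share was 0.835% in replicate 3 and 0.607% in replicate 6, and 1.03 ± 0.0887% in the other 6.

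**Figure D1:**
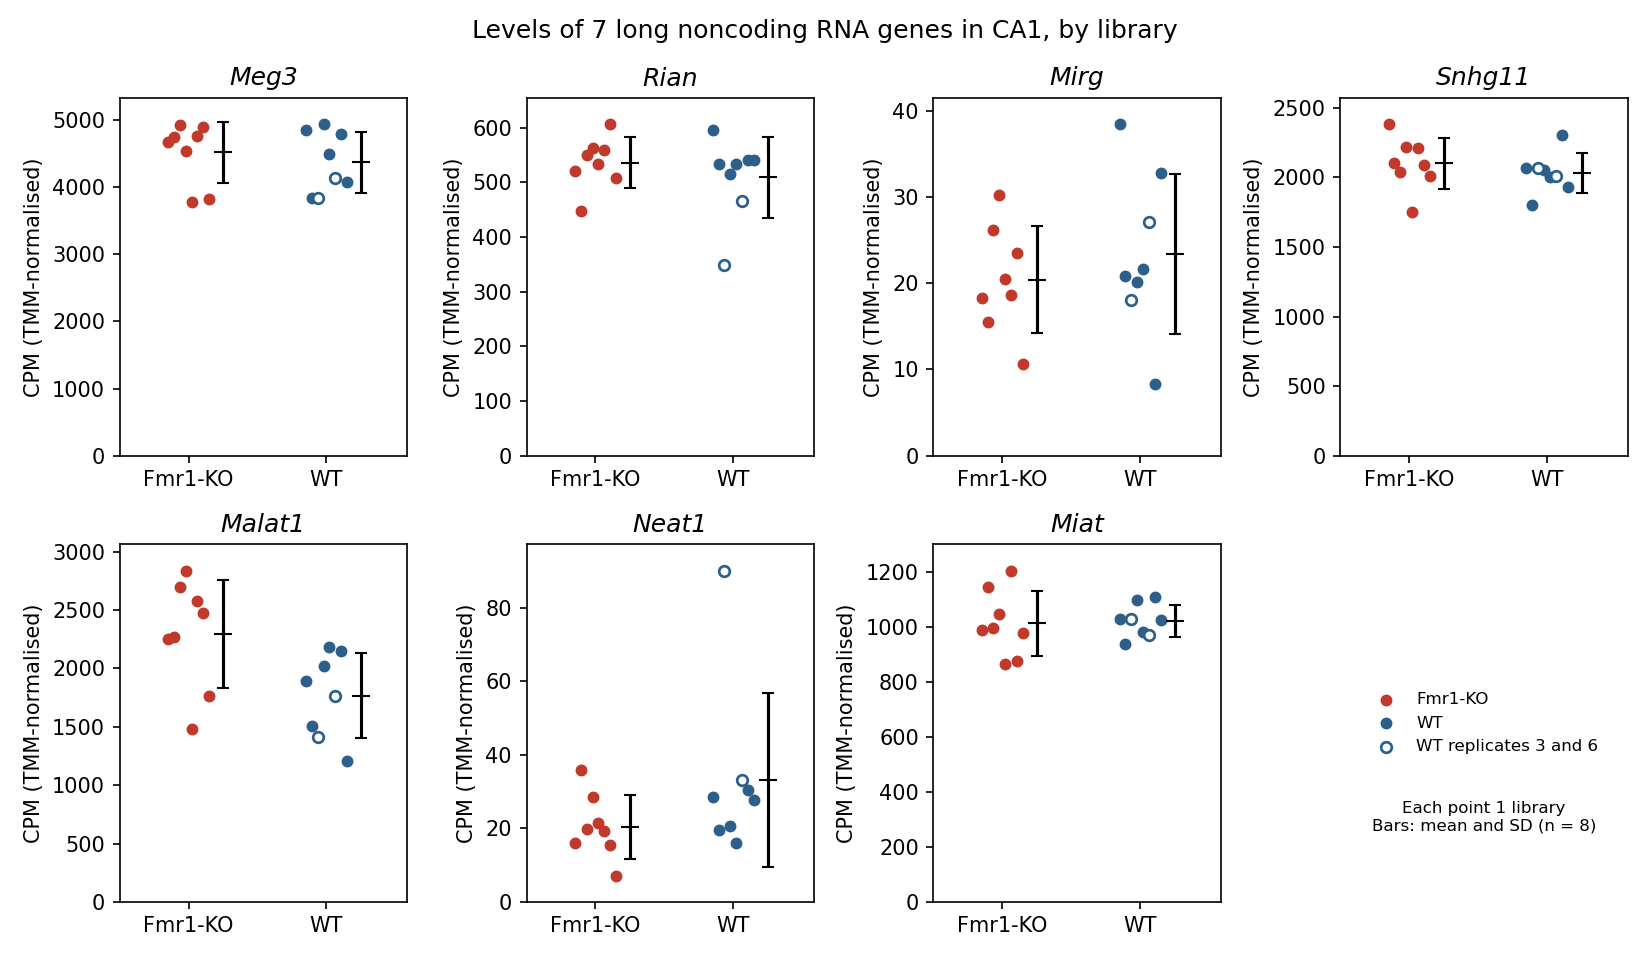
Levels of the 7 genes in CPM (vertical axes, linear from 0), 1 point per library, with Fmr1-KO to the left of WT and the mean and SD beside each group. Open circles are WT replicates 3 and 6. For Malat1, 6 of 8 Fmr1-KO points lie above the highest WT point, and Neat1 is far higher in WT replicate 3 than in any other library.

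The name of abundant RNAs fitted 5 of the 7. In mean CPM, Meg3 ranked 6 among the 11515 genes tested, Snhg11 25, Malat1 27, Miat 102 and Rian 282. Neat1, at rank 6133, and Mirg, at rank 6875, were near the middle. These ranks are not adjusted for length. In TPM, which accounts for length, median ranks over the libraries among all 46403 symbols were 35 for Meg3, 85 for Rian and 116 for Snhg11. They were 151 for Malat1, 319 for Miat, 3387 for Mirg and 9860 for Neat1. Snhg11 is annotated as protein-coding in M21, with 97.0% of its counts in Fmr1-KO and 96.3% in WT assigned to the protein-coding Snhg11-001, though it is usually described as a host gene of small nucleolar RNAs. The 2 small nucleolar RNA genes within it had 0 and 88 counts in all.

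Meg3, a maternally expressed RNA retained largely in the nucleus, was the highest of the 7. It ran over 3786, 4710 and 4932 CPM in Fmr1-KO (lowest, median and highest) and over 3840, 4318 and 4936 CPM in WT. The genotypes covered nearly the same range, with 6 of 8 Fmr1-KO libraries within that of WT. Its mean was 4522 ± 457 CPM over the 8 Fmr1-KO libraries and 4373 ± 453 CPM over the 8 WT libraries, a log2 fold change of 0.05 with a 95% confidence interval of −0.12 to 0.21. By edgeR the Benjamini-Hochberg adjusted p was 0.912.

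Rian, which hosts C/D box small nucleolar RNAs in its introns, had 447, 542 and 606 CPM in Fmr1-KO against 348, 533 and 595 CPM in WT. The lowest WT values were those of replicates 3 and 6, 348 and 466 CPM. The log2 fold change was 0.07 (95% interval −0.12 to 0.26, edgeR adjusted p = 0.891), −0.02 (−0.17 to 0.13) without them, and −0.00071 with counts summed by number. The other 6 WT libraries averaged 543 ± 27.3 CPM (SD, n = 6), against 536 ± 46.7 CPM in Fmr1-KO (n = 8). Inside Rian, on the same strand, lies Gm26945, a separate noncoding gene picked after its values were seen, with 11.2 ± 2.71 CPM in Fmr1-KO against 10.7 ± 4.04 CPM in WT.

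Mirg, the host of most miRNAs of the cluster, was low and varied most within the genotypes beside Neat1. It had 10.6, 19.5 and 30.3 CPM in Fmr1-KO against 8.30, 21.3 and 38.4 CPM in WT. Counts stood at 23 to 78 per Fmr1-KO library and 9 to 115 per WT library. Its log2 fold change of −0.19 had a 95% interval of −0.73 to 0.35 (edgeR adjusted p = 0.892). It was −0.033 without WT replicate 1, −0.09 without WT replicate 8 or Fmr1-KO replicate 8, −0.29 without Fmr1-KO replicate 4 and −0.32 without WT replicate 7. In the 3 limma fits of TPM it was 0.24 to 0.55, relative to the median of all genes, the other direction.

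Snhg11, a host gene expressed mainly in neurons, had 1749, 2095 and 2380 CPM in Fmr1-KO against 1800, 2031 and 2308 CPM in WT. All 8 WT libraries lay within the range of Fmr1-KO. Its log2 fold change was 0.05 (95% interval −0.10 to 0.20, edgeR adjusted p = 0.903). Miat, also called Gomafu, a neuronal RNA retained in the nucleus, had 867, 994 and 1204 CPM in Fmr1-KO against 938, 1026 and 1108 CPM in WT. WT libraries again lay wholly within the Fmr1-KO range, and 2 Fmr1-KO libraries were above and 2 below all of WT. The log2 fold change of Miat was −0.01 (95% interval −0.17 to 0.15, edgeR adjusted p = 0.974).

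Malat1, an RNA of nuclear speckles that affects the splicing and levels of synaptic genes in mouse hippocampal neurons, showed the largest shift among the abundant members. It had 1483, 2369 and 2836 CPM in Fmr1-KO against 1203, 1828 and 2183 CPM in WT. Of the 8 Fmr1-KO libraries, 6 lay above the highest WT library and the other 2 within the WT range. The mean was 2293 ± 464 CPM over the Fmr1-KO libraries and 1767 ± 362 CPM over the WT libraries, a log2 fold change of 0.38 (SE 0.14, 95% interval 0.10 to 0.66). By edgeR its unadjusted p was 0.0107 and its Benjamini-Hochberg adjusted p 0.572, so the difference did not pass over all genes. Without WT replicates 3 and 6 the log2 fold change was 0.33 (0.06 to 0.60) and the edgeR adjusted p 0.644. With the letter of the label, B or D, as a covariate it was 0.39 (edgeR adjusted p = 0.534), and with counts summed by number 0.34 (0.08 to 0.61, edgeR unadjusted p = 0.0131, adjusted p = 0.659). As Malat1 is an RNA of every cell type, a different mix of cells and a different amount of RNA per cell cannot be told apart in tissue, here or for the other members.

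**Figure D2:**
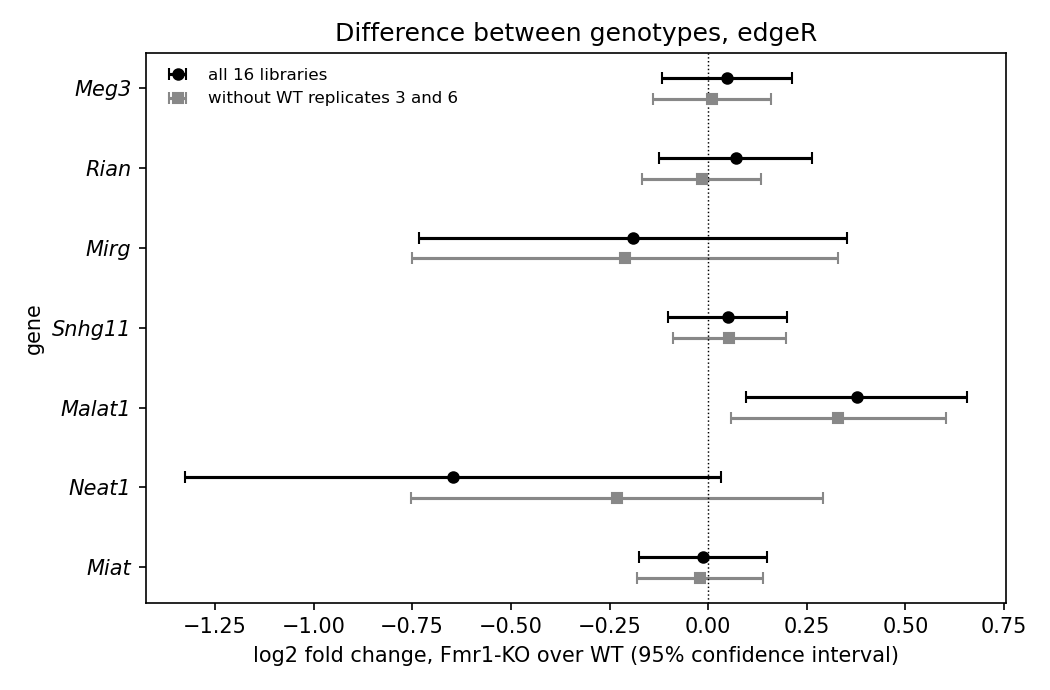
Log2 fold change, Fmr1-KO over WT, of the 7 genes (horizontal axis) with 95% confidence intervals from edgeR, over all 16 libraries (circles) and without WT replicates 3 and 6 (squares). The Malat1 interval lies above 0 in both fits, unadjusted for the number of genes, and the Neat1 estimate moves from −0.65 to −0.23 between them.

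Neat1, the scaffold of paraspeckles, is usually low in neurons and higher in glia. It had 7.05, 19.6 and 35.8 CPM in Fmr1-KO against 16.1, 28.03 and 90.1 CPM in WT. The highest value was that of WT replicate 3, and the next WT library stood at 33.1 CPM. The log2 fold change was −0.65 (SE 0.33, 95% interval −1.33 to 0.03), with an edgeR unadjusted p of 0.0611 and a Benjamini-Hochberg adjusted p of 0.649. It was −0.27 without WT replicate 3 and −0.23 (−0.75 to 0.29) without replicates 3 and 6, where WT averaged 23.8 ± 5.79 CPM (n = 6) beside 20.4 ± 8.69 CPM in Fmr1-KO (n = 8). With counts summed by number it was −0.36 (−0.94 to 0.21). Counts ran over 16.0 to 66.6 per Fmr1-KO library and 11.5 to 85.1 per WT library.

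Summed markers of astrocytes, microglia, vessels, oligodendrocyte precursors and CA1 pyramidal neurons were also highest in WT replicate 3, while those of oligodendrocytes were highest in WT replicate 8. Among WT libraries, markers of dentate granule cells were highest in replicate 1 and those of GABAergic interneurons in replicate 2. Those of CA2 and CA3 pyramidal neurons and of choroid plexus and ependyma were highest in WT replicate 6. The precursor markers summed to 66.8 to 124 CPM in Fmr1-KO against 75.9 to 247 CPM in WT, with the next WT library at 175 CPM. The CA1 pyramidal markers summed to 8004 to 9143 CPM in Fmr1-KO against 7567 to 10090 CPM in WT, with the next WT library at 8638 CPM. The 8 astrocyte markers summed to 1587 to 2531 CPM in Fmr1-KO against 1778 to 5374 CPM in WT, with the next WT library at 2440 CPM. All 8 were highest in WT replicate 3, and 0 of them were at 0 in any library. The 9 microglial markers summed to 155 to 278 CPM in Fmr1-KO against 198 to 501 CPM in WT, with 1 of the 9 at 0 in replicate 3. The 8 markers of endothelium and pericytes summed to 66.5 to 155 CPM in Fmr1-KO against 96.5 to 424 CPM in WT, with 0 of them at 0 in any library. The highest WT sums of both lists were in replicate 3. In the edgeR fit 0 markers of astrocytes, microglia or vessels passed, and the value of each one tested was lower in Fmr1-KO. The median log2 fold changes were −0.35 for astrocytes, −0.34 for microglia and −0.59 for vessels over all libraries, and −0.10, −0.21 and −0.35 once WT replicates 3 and 6 were left out. Of these 24 markers, 5 had an unadjusted edgeR p under 0.05, against 7.89% of all genes tested. Summed astrocyte markers had a higher median in Fmr1-KO, 2229 CPM against 1961 CPM in WT. All 8 oligodendrocyte markers tested and all 5 precursor markers were also lower in value, 0 of them past the threshold and 0 and 2 at an unadjusted edgeR p under 0.05, with median log2 fold changes of −0.40 and −0.46, and −0.39 and −0.07 without those libraries. The part of these cells in the Neat1 value was not tested.

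Levels of different genes were compared in TPM, which accounts for length. The order was Meg3, Rian, Snhg11, Malat1, Miat, Mirg and Neat1, with mean levels in Fmr1-KO of 1804, 807, 698, 608, 327, 49.3 and 8.26 TPM. The WT means were 1438, 639, 535, 372.3, 269, 38.7 and 8.99 TPM, below those of Fmr1-KO for all but Neat1. Without WT replicates 3 and 6 the WT means were 1755, 809, 654, 443, 331, 49.6 and 9.69 TPM, so that Rian, Miat, Mirg and Neat1 were slightly lower in Fmr1-KO. WT replicate 5, of usual depth, was also low in TPM, with 951 TPM of Meg3 and 376 TPM of Snhg11. The 5 remaining WT libraries had 1697 to 2241 TPM of Meg3 and 658 to 750 TPM of Snhg11. Their means, an alternative added after the values were seen, were 1915, 878, 709, 469, 362, 53.5 and 10.8 TPM in the same order. Against these, 6 of the 7 were lower in Fmr1-KO and Malat1 higher. WT replicate 5 was left out because its TPM of the members was low, so the WT means had to rise. This alternative therefore does not show the direction of a difference. The direction of a genotype difference in TPM thus changed with the WT libraries kept for all but Malat1 and Neat1. For Meg3 and Snhg11 it changed only by the omission of WT replicate 5. WT replicate 6 had the lowest TPM of Meg3, 212, and also of Rian, Snhg11, Malat1, Miat and Neat1. Meg3 was above Rian, and Miat above Mirg, in all 8 Fmr1-KO and all 8 WT libraries. Rian was above Snhg11 in 7 Fmr1-KO and 6 WT libraries, and Snhg11 above Malat1 in 6 Fmr1-KO and 8 WT libraries, so these neighbours in the order overlapped.

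The transcripts of each gene were compared next, as the deposited estimates divide reads among them. Of the 61 transcripts, 34 were tested, 20 higher and 14 lower in Fmr1-KO, and 0 passed. Over all transcripts 1 of 16772 passed (0.00596%). At an unadjusted p under 0.05 stood 1 of the 34, Malat1-001, against 655 of all transcripts tested (3.91%). Malat1-001, the full-length transcript of 6983 bases, held 99.8% of the counts of its gene in Fmr1-KO and 99.2% in WT. Its log2 fold change was 0.39 (SE 0.15, edgeR unadjusted p = 0.0195 and Benjamini-Hochberg adjusted p = 0.9999).

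By estimated counts, which are not adjusted for length, most genes had 1 dominant transcript. Meg3-001 (14548 bases) held 79.5 ± 1.74% of Meg3 in Fmr1-KO and 80.0 ± 1.28% in WT. Miat-002 held 87.2 ± 8.08% of Miat in Fmr1-KO and 88.3 ± 4.50% in WT, the rest lying mostly in Miat-001. Rian-006 held 47.3 ± 3.52% of Rian in Fmr1-KO and 51.0 ± 5.29% in WT (SD, n = 8 each). Rian-018 followed with 16.4% in Fmr1-KO and 17.4% in WT, and Rian-007 (8089 bases) with 10.1% in Fmr1-KO and 8.50% in WT. None of the log2 fold changes of these transcripts passed, and those of Rian-006 and Rian-007 were −0.03 (SE 0.09) and 0.31 (SE 0.22). Mirg was spread over 12 transcripts, of which Mirg-008 alone was tested. In mean TPM, which accounts for length, the lead within Meg3, Rian and Miat was smaller. Meg3-001 had 438 in Fmr1-KO and 339 in WT, against 391 and 275 for Meg3-005. Rian-006 had 207 in Fmr1-KO and 172 in WT, against 156 and 133 for Rian-018. Miat-002 had 181 in Fmr1-KO, against 86.9 for Miat-004. Snhg11-001 and Malat1-001 had 627 and 591 in Fmr1-KO, far above any other transcript of their genes.

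**Figure D3:**
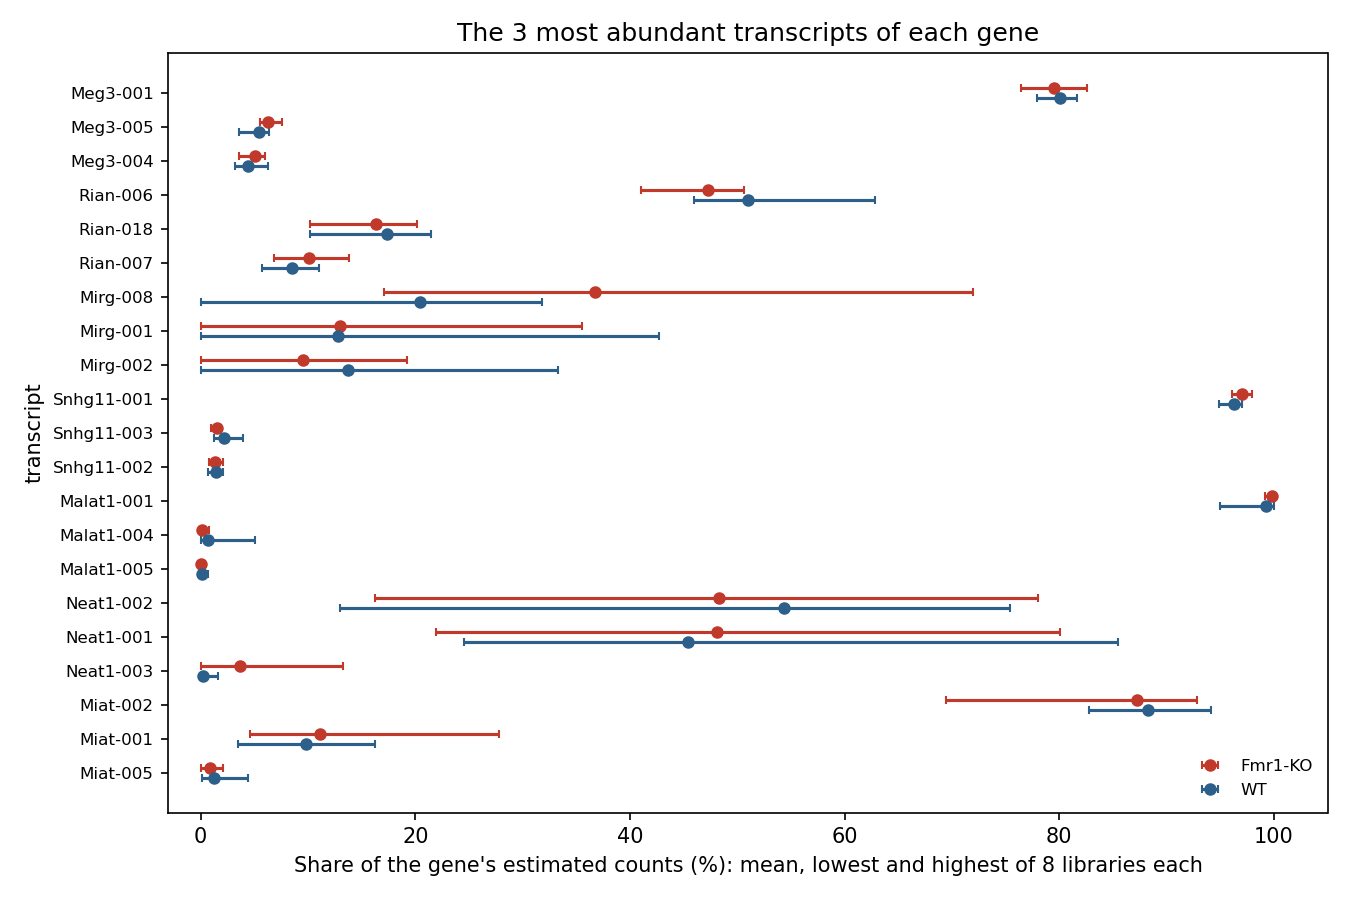
Share of each gene's estimated counts (horizontal axis, %) held by its 3 most abundant transcripts, with the mean and the lowest and highest of 8 libraries, Fmr1-KO above WT. Shares of counts are not adjusted for transcript length. Snhg11-001, Malat1-001, Miat-002 and Meg3-001 hold most counts of their genes in both genotypes, while shares within Mirg and Neat1 range widely.

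Neat1 has a long and a short form, and paraspeckles form on the long one. The long Neat1-001 (20771 bases) had 10.2 ± 5.83 CPM in Fmr1-KO against 16.4 ± 14.7 CPM in WT. The short Neat1-002 (3004 bases) had 9.49 ± 6.59 CPM in Fmr1-KO against 17.1 ± 12.5 CPM in WT, where ± is the SD over 8 libraries. Their log2 fold changes, −0.61 (SE 0.54) and −0.84 (SE 0.49), did not pass. Without WT replicates 3 and 6 they were 0.15 (SE 0.48) for the long form, the other direction, and −0.66 (SE 0.44) for the short form. Of the stretches of 31 bases in the short form, 99.03% also occur in the long one, so the division of reads between the forms is uncertain. The long form held 21.97% to 80.05% of Neat1 in single Fmr1-KO libraries and 24.6% to 85.4% in WT libraries. These CPM values and shares are not adjusted for length. In TPM, which accounts for length, the long form averaged 0.872 in Fmr1-KO and 0.817 in WT. The short form averaged 5.78 TPM in Fmr1-KO and 8.15 TPM in WT. The short form was thus the higher in mean TPM in both genotypes, with the same uncertain division of reads.

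Sequence shared with other genes was limited for most members. Of its stretches of 31 bases, Malat1-001 shared 6.89% with other genes, Snhg11-001 4.84%, Rian-006 2.58% and Meg3-001 8.97%. Miat-002 shared 22.6%, most of it as the reverse complement of Gm26953, a gene on the opposite strand that had 0 counts in all 16 libraries. Gm26906, on the strand opposite to Meg3, also had 0, and Gm37376, opposite to Malat1, had 151 counts in all. These genes were named after their values were seen. Strand use in counting is not given in the sources used here, so reads of such pairs cannot be told apart. Meg3-005, the second transcript of Meg3, shared 48.2% with Gm27000 on chromosome X, which had at most 1.88 CPM in any Fmr1-KO library and 5.07 CPM in any WT library.

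Ratios within a library do not depend on how libraries are scaled. The genotypes were set against each other for 3 ratios with exact permutation tests, two-sided, and p-values adjusted over the 3. Rian counts were 9.42% to 14.1% of Meg3 counts in Fmr1-KO and 9.07% to 13.9% in WT. The mean was 11.9 ± 1.43% in Fmr1-KO and 11.7 ± 1.52% in WT, a difference of 0.04 in the mean log2 ratio (exact permutation p = 0.708, adjusted p = 0.708). Mirg counts were 0.276% to 0.668% of Meg3 in Fmr1-KO and 0.173% to 0.803% in WT. The mean was 0.451 ± 0.129% in Fmr1-KO and 0.541 ± 0.209% in WT, a difference of −0.19 in the mean log2 ratio (exact permutation p = 0.544, adjusted p = 0.708). This value turned on single libraries: it was −0.40 without WT replicate 7, the lowest (exact permutation p = 0.0715), −0.09 without WT replicate 1, −0.09 without WT replicate 8 and −0.10 without Fmr1-KO replicate 8. Both differences over all libraries were smaller than the SD of the log2 ratio within either genotype, which was 0.18 in Fmr1-KO and 0.19 in WT for Rian, and 0.42 in Fmr1-KO and 0.71 in WT for Mirg.

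Neat1 counts were 0.400% to 1.58% of Malat1 counts in Fmr1-KO and 0.741% to 6.42% in WT. The mean was 0.907 ± 0.413% in Fmr1-KO and 2.08 ± 1.82% in WT (SD, n = 8 each). The log2 ratio was lower in Fmr1-KO by a difference of −1.01, with an exact permutation p of 0.0197 and 0.0592 after adjustment over the 3 ratios. The WT value of 6.42% was that of replicate 3, and the next was 2.30%. Without WT replicate 3 the difference was −0.73 (exact permutation p = 0.0395), and without WT replicates 3 and 6 it was −0.65 (exact permutation p = 0.0773). With counts summed by number it was −0.75 (exact permutation p = 0.103, adjusted p = 0.310).

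**Figure D4:**
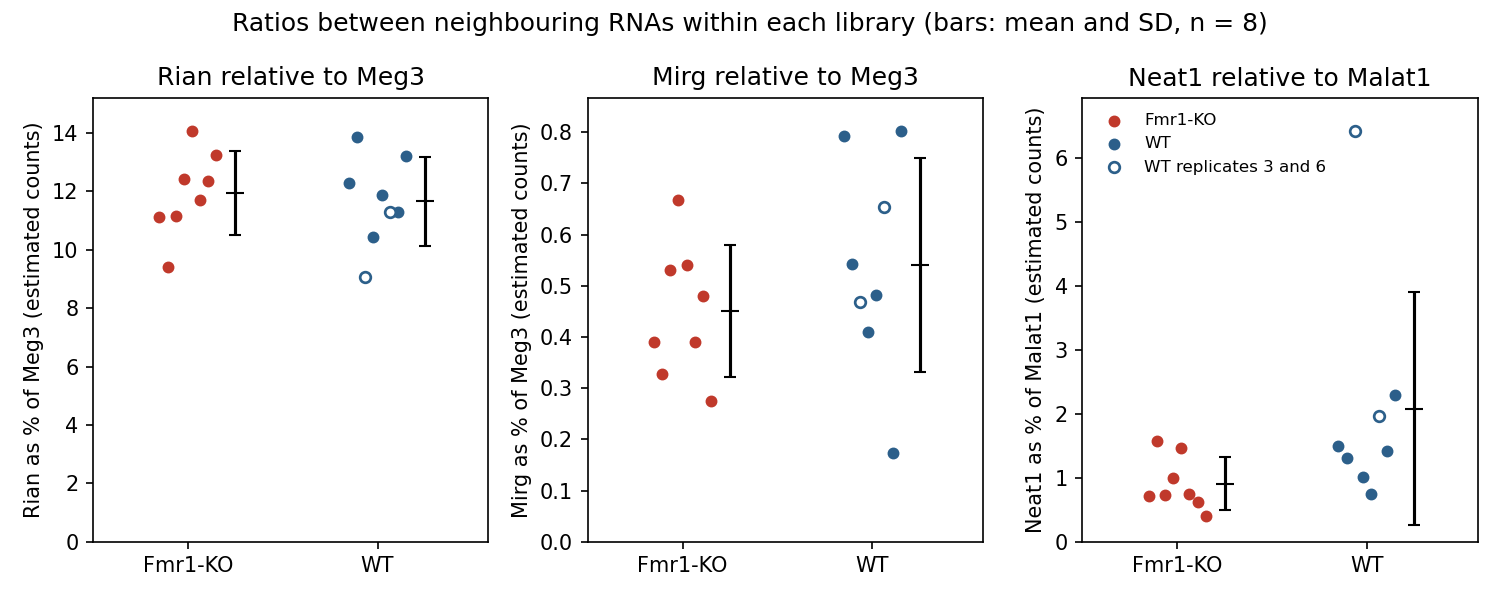
Rian and Mirg as a percentage of Meg3, and Neat1 as a percentage of Malat1 (vertical axes, estimated counts), 1 point per library, Fmr1-KO left of WT, with mean and SD. Counts of Rian stay at 9.07% to 14.1% of those of Meg3 in all libraries, not adjusted for length. The Neat1 share of 6.42% in WT replicate 3 stands above all others.

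Levels of the members were also compared with each other across libraries, over 21 pairs of log2(CPM + 1). By Pearson's r, 3 pairs passed an adjusted permutation p of 0.05: Meg3 with Malat1, Meg3 with Snhg11, and Snhg11 with Malat1. By Spearman's rho 0 passed. Meg3 fell on 2 sides of a gap. In 6 libraries, 2 Fmr1-KO and 4 WT, it had 3786 to 4137 CPM, and Malat1 there had 1203 to 1766 CPM. In the other 10 libraries, 6 Fmr1-KO and 4 WT, Meg3 had 4498 to 4936 CPM and Malat1 1896 to 2836 CPM. Malat1 was thus also lower in these 6 libraries, with no overlap between the sides. For Meg3 the absence of overlap follows from the cut, made at its largest gap. No r over all libraries is given for Meg3. Within the 6 and the 10 libraries r was −0.10 and −0.20 for Meg3 with Malat1, and 0.36 and −0.23 for Meg3 with Snhg11. The sides were cut on Meg3 itself after its values were seen, which narrows its range, so these values do not show where the relation lies. Within the genotypes, which each span both sides, r of Meg3 with Malat1 was 0.88 in Fmr1-KO and 0.78 in WT. Within the letters it was 0.86 for B and 0.70 for D.

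Snhg11 and Malat1 had r = 0.64 and rho = 0.63 over 16 libraries, with permutation p-values of 0.00686 and 0.0103 and, over 21 pairs, adjusted permutation p-values of 0.0480 and 0.0868. Without the 2 libraries farthest from the median of Snhg11, r was 0.63. It was 0.72 within Fmr1-KO and 0.55 within WT. By the letter of the label, it was 0.54 for B and 0.81 for D, values added after the data were seen. Over the means of the 10 numbers it was 0.57. Levels in 1 library share its depth and composition. Within the imprinted cluster no pair passed. Rian and Mirg had r = 0.28 and rho = 0.53, with permutation p-values of 0.290 and 0.0384 and adjusted permutation p-values of 0.533 and 0.177. Without the 2 libraries farthest from the median of Rian, r was 0.29, and it was 0.62 within Fmr1-KO and 0.20 within WT.

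**Figure D5:**
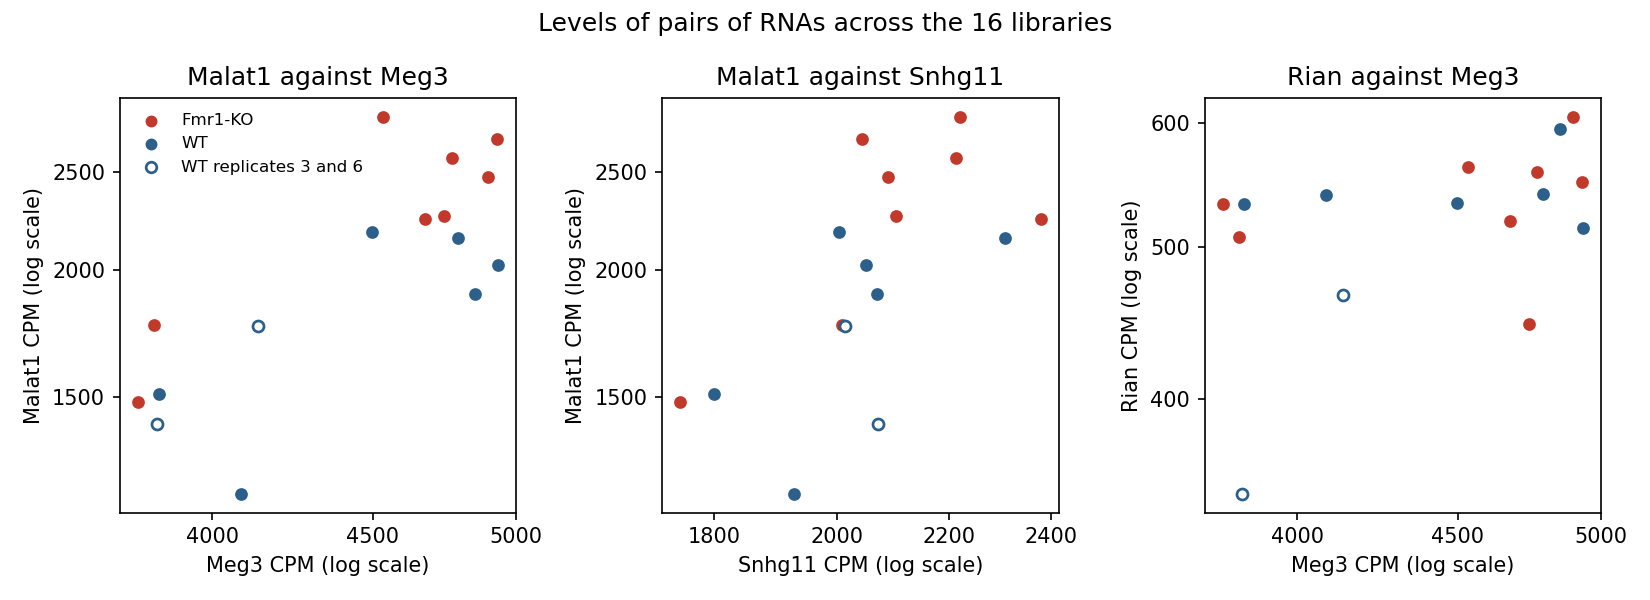
Malat1 against Meg3, Malat1 against Snhg11 and Rian against Meg3, in CPM on log axes, 1 point per library. Red is Fmr1-KO, blue is WT, and open circles are WT replicates 3 and 6. The 6 libraries at 3786 to 4137 CPM of Meg3 are also the 6 lowest in Malat1.

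For each member the 3 other genes most alike were those with the highest Spearman rho of log2 CPM over the 16 libraries, given as a description of libraries that share depth and composition. Malat1 was most like Setbp1, a nuclear SET-binding protein gene (rho 0.92), Abl2, a tyrosine kinase gene (0.89), and Tnik, a kinase gene (0.89). Meg3 was most like Smg1, a kinase gene of nonsense-mediated decay, with Tmem263 and Unk (0.83 each). Rian was most like Cdadc1 (0.86), Lyrm5 and Prps1l3 (0.84 each), and Mirg like Tmem214 (0.83), Ing1 (0.81) and Rfwd2 (0.79). Snhg11 was most like Ralgps1 (0.86), Nrd1 (0.79) and the channel gene Unc80 (0.77). Neat1 was most like Anapc16, Etv4 (0.86 each) and Slc5a6 (0.84), and Miat like Gm4430 (0.83), the serotonin receptor gene Htr1a and the inositol kinase gene Itpkb (0.81 each).

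Other genes of the imprinted domain were examined as a list. Of 14 listed, 9 were tested, 5 higher and 4 lower in Fmr1-KO, and 0 passed. Their median difference was 0.00040 on the log2 scale, against −0.01 over all genes tested. Without WT replicates 3 and 6 that median was −0.06. Rtl1, a retrotransposon-derived gene of the paternal chromosome, had 16.3 to 43.1 CPM in Fmr1-KO against 4.80 to 27.4 CPM in WT. Its log2 fold change was 0.67 (SE 0.27, edgeR adjusted p = 0.590). Begain, a postsynaptic density gene at the edge of the domain, had −0.28, Evl, an actin regulator gene, −0.30, and the dynein heavy chain gene Dync1h1 0.23, none of which passed. Begain moved to −0.17 without WT replicates 3 and 6. Dlk1, at a mean of 0.591 CPM in Fmr1-KO against 0.136 CPM in WT, and Dio3, at 0.749 CPM in Fmr1-KO against 0.525 CPM in WT, were too low to be tested.

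Of 41 other imprinted genes, 30 were tested, 22 higher and 8 lower, 0 of them past the threshold, and the median on the log2 scale was 0.12. The 4 with the smallest p were all higher in value: Ppp1r9a (0.28), Igf2r (0.52), Peg3 (0.21) and Zrsr1 (0.35). Of 36 other long noncoding RNAs of brain, 25 were tested, 13 higher and 12 lower, with a median of 0.04 and 0 past the threshold. Mir124a-1hg, the host of a neuronal miRNA, had 90.9 ± 13.3 CPM in Fmr1-KO against 127 ± 40.3 CPM in WT (log2 fold change −0.50, edgeR adjusted p = 0.515). The noncoding RNA 1700020I14Rik had 405 ± 54.7 CPM in Fmr1-KO against 308 ± 72.3 CPM in WT (log2 fold change 0.39, edgeR adjusted p = 0.517). Dlx6os1, an RNA of interneurons, had −1.01, and 2900097C17Rik 0.18.

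Proteins of the bodies in which Malat1 and Neat1 gather were listed too. Of 16 genes of paraspeckle proteins, all 16 were tested, 7 higher and 9 lower, 0 of them past the threshold, and the median on the log2 scale was −0.03. The core proteins had log2 fold changes of −0.03 for Sfpq and 0.02 for Nono, both RNA-binding proteins that bind Neat1. Of 23 genes of nuclear speckle and splicing proteins, 17 were higher and 6 lower, with a median of 0.04 and 0 past the threshold. Prpf8, the central protein of the spliceosome, had 326 ± 36.7 CPM in Fmr1-KO against 248 ± 37.9 CPM in WT, a log2 fold change of 0.39 (SE 0.10, edgeR adjusted p = 0.506). Rbfox1, a neuronal splicing factor gene, had 0.25, the speckle scaffold gene Srrm2 0.18 and Tra2b 0.24, none of which passed. These 4 genes were named for the smallest p of the 23. At an unadjusted edgeR p under 0.05 stood 4 of the 23, 4 higher and 0 lower, against 7.89% of all genes tested.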

How the data were processed

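RNA of the CA1 subfield was sequenced on an Illumina HiSeq platform after isolation with a Maxwell 16 LEV kit, per the labels' protocols. Quality control with FastQC, trimming with cutadapt, quantification with kallisto and testing with DESeq2 are named per the submitters' processing notes, with no versions, transcript index, strand setting or genome build (not given in the sources used here). The authors deposited 1 table per library with an estimated count and a TPM value for each of 111706 transcripts. The deposited estimated counts divide reads among transcripts that share sequence, and the deposited TPM values, scaled by effective length within a library, keep no depth. The deposited lengths (in bases) were used for description. Of the 61 member transcripts, 60 have the same length in GENCODE M21, the source of positions.

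Estimated counts were summed per symbol (46403 symbols, 83 with several gene identifiers) and rounded to whole numbers. Genes were tested with edgeR 4.0.16 in R 4.3.3 (quasi-likelihood test, TMM, filterByExpr with a minimum count of 10, Benjamini-Hochberg adjustment, threshold 0.05) over all 16 libraries, and transcripts likewise. Ratios were compared by exact permutation tests and correlations by 100000 permutations in SciPy 1.17.1. Named genes were Fmr1, the members, up to 3 transcripts of each, the 3 most alike genes by Spearman rho and up to 4 genes with the smallest p of each list. Sfpq, Nono and genes overlapping the members were added. Replicate numbers follow label order and pair nothing; 10 label numbers cover the 16 libraries, and counts were also summed by number. Members and lists were chosen with earlier results of these data known. Alternatives were DESeq2 1.42.0, limma 3.58.1 on counts or on log2(TPM + 1) and log2(TPM + 0.1), other scalings and filters, the letter of the label, and the omission of libraries.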

Additional observations from a re-analysis of the deposited data

Results flagged for a closer look

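Among 20 groups of 8 values of the members and their ratios, 2 held a library far from the rest, and chance alone flags about 1 in 20 such groups. Neat1 stood at 90.1 CPM in WT replicate 3, with the next WT library at 33.1 CPM and the lowest at 16.1 CPM. The log2 ratio of Mirg to Meg3 was −9.17 in WT replicate 7, against −7.93 in the next WT library and −6.96 in the highest.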

How the results depend on the processing

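Of 354 alternative values, 305 were rated the same as the main value and 29 changed sign. With a p-value, the same meant an unchanged direction and side of the threshold. For values of TPM with no p it meant an unchanged direction, and for correlations with no p also a small change in r. For numbers of genes, transcripts or pairs past the threshold it meant a number close to that of the main fit. In the 26 alternatives on counts, each of the 7 genes passed in 0. Malat1 had an unadjusted p under 0.05 in all 26, with log2 fold changes of 0.31 to 0.45 and adjusted p-values of 0.208 to 0.795 (edgeR, DESeq2 or limma). For Neat1, 7 of the 26 had one, with −0.79 to −0.23 and adjusted p-values of 0.333 to 0.866 (edgeR, DESeq2 or limma). The causes of the changes below were not tested. Few counts stand behind Mirg and Neat1, and 2 WT libraries were shallow.

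Genes past the threshold numbered 6 with DESeq2, 5 with no filter, 7 with limma-voom and quality weights, and 0 in each of the 3 limma fits of TPM. Transcripts numbered 2 with DESeq2, 0 with counts summed by number, and 1 to 2 when 1 library was left out. In the limma fits, where the median of all genes moved by 0.55, 0.62 and 0.27, values are relative to that median and have no p. They were 0.27 to 0.63 for Malat1 and −0.54 to −0.26 for Neat1. Meg3 was −0.034 with log2(TPM + 0.1). Mirg was 0.27 with log2(TPM + 1), 0.24 with log2(TPM + 0.1) and 0.55 with no filter on TPM. Rian was −0.017 without WT replicates 3 and 6 and −0.00071 with counts summed by number. Miat, at −0.01 over all libraries, was 0.040 with library totals and 0.042 with totals that leave out the members, 0.0045 with no filter, 0.0020 with a minimum of 1 CPM in 8 libraries and 0.0013 with limma-voom. It was 0.0045 with log2(TPM + 1), 0.29 with no filter on TPM, and −0.051 to 0.018 when 1 library was left out.

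The log2 ratio of Rian to Meg3 differed by −0.029 without WT replicates 3 and 6, by −0.048 with counts summed by number, and by −0.015 (without WT replicate 3) to 0.083 when 1 library was left out. That of Mirg to Meg3 differed by 0.28 as a ratio of TPM, and by −0.40 to −0.09 when 1 library was left out. That of Neat1 to Malat1 differed by −0.65 without WT replicates 3 and 6, by −0.80 as a ratio of TPM and by −0.75 with counts summed by number. With library totals 8 correlations passed by Pearson's r. Meg3 and Mirg had r = −0.14 within WT and −0.12 without the 2 farthest libraries. Malat1 and Neat1, at −0.26 over all libraries, had r = 0.027 without WT replicates 3 and 6, 0.36 within Fmr1-KO and 0.11 without the 2 farthest libraries. Within the sides of the gap in Meg3, a split added after seeing the data, r was −0.10 and −0.20 with Malat1, and −0.23 with Snhg11 on the upper side. No paired analysis was possible because the numbers of the labels do not occur in both genotypes.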
